A study of Mus musculus with 4 samples.

Results

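Hhex (Entrez identifier 15242) is the homeobox gene whose deletion defines the groups of this study. It was taken by its identifier from the table of read counts and from the log2 RPKM table of each library, and it is 1 gene of 26286 in the count table. RNA was sequenced from LSK cells, the bone marrow fraction of C57BL/6 mice that lacks lineage markers and carries Sca-1 and Kit, which includes blood stem cells and their multipotent descendants. A total of 2 libraries have the genotype Hhex deletion (labelled Hhex-deleted replicates 1 and 2) and 2 are Wild-type (replicates 1 and 2). The sources used here do not name the exons deleted, the Cre line or other means of deletion, the age, any treatment or the number of mice per library. Because no label says that the replicates came from separate mice, p-values measure the spread between these libraries, which may be technical in Wild-type. In the other group, the sex-linked genes given below differ between the replicates, so these do not share a single mouse as their only source.

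Homeobox genes encode transcription factors that bind DNA through the homeodomain, a fold of 3 helices of which the third lies in the major groove. Hhex, also called Prh, is known mainly as a repressor: a short eh1 motif near its amino end recruits corepressors of the Groucho/TLE family, and the homeodomain in the middle binds DNA. The gene is needed for early liver, thyroid and endothelial development, and in blood it is active in stem cells and progenitors and falls as many lineages mature. The study's title places Hhex upstream of Cdkn2a, the gene of the cell cycle inhibitor p16Ink4a and of Arf.

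The parts of the gene that the counts add together matter for reading its level, so the transcript was laid out first. The deposited gene length of Hhex is 1771 bases. The 4 exons of the RefSeq transcript, with boundaries taken from GENCODE M21, are 393, 179, 51 and 1148 bases long and also sum to 1771, so the counted model has the length of this single transcript. Hhex lies on the plus strand of chromosome 19. Coordinates are left out because the reference is GRCm38 and the deposited files were made on mm9. In the translated transcript of 271 residues, the homeodomain covers residues 138 to 197 and the eh1 motif (phenylalanine, any residue, isoleucine, any 2 residues, isoleucine, leucine) residues 33 to 39. The eh1 motif is in exon 1. The homeobox, the part that codes for the homeodomain, has 132 bases in exon 2 and 48 bases in exon 3, and none in exons 1 or 4. Exon 4 alone holds 64.8% of the counted length, and 929 of its bases (52.5% of the transcript) lie after the last coding base of the protein.

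The homeobox is printed because its place in the exons sets how little of the counted gene it occupies, and the eh1 stretch because it lies in another exon. The sequences are the coding strand, 5′ to 3′, read from the GENCODE M21 transcript. Capitals mark bases 142 to 159 of the homeobox, the codons of the 6 residues in the third helix (tryptophan to the second arginine) by which the homeodomain was located, and these lie in the exon 3 part.
Hhex homeobox: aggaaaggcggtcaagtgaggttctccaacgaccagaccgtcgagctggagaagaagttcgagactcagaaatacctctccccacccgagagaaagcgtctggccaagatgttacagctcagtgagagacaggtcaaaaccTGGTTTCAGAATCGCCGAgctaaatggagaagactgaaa
Hhex eh1: ttctacatcgacgacatcttg

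**Figure D1:**
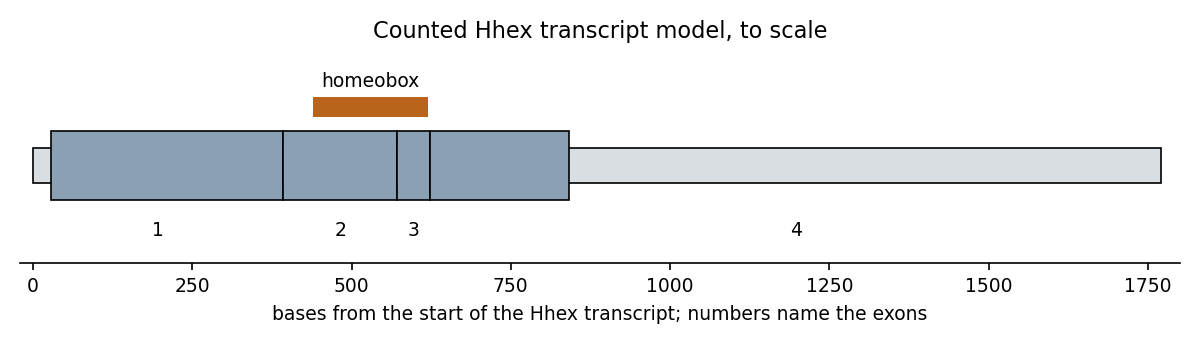
The counted Hhex transcript drawn to scale, with the distance from its start in bases on the x axis. Wide boxes are coding, narrow boxes are not, vertical lines are exon borders and the orange bar is the homeobox, which lies within exons 2 and 3, while exon 4 holds 64.8% of the 1771 bases.

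Before Hhex was compared, the libraries were checked. Totals ran from 27871827 to 29501591 counts, and every pair of libraries differed by more than sampling noise (chi-square per degree of freedom of 29.7 or more). Kit (566 to 698 CPM, read counts over the TMM-scaled library total, as CPM) and Ly6a, the gene of Sca-1 (20.7 to 42.5 CPM), were present in every library. Of 11 lineage markers of the kind gated out, Cd3e, Cd8a and Ly6g were at 0.398 CPM or less, and the whole list summed to 579 to 643 CPM in the libraries labelled Hhex-deleted against 687 to 736 CPM in Wild-type. Replicate 1 labelled Hhex-deleted stood apart in sex-linked genes, with 2662 CPM of Xist against 1.89 to 2.66 in the other libraries and 0.343 CPM of Ddx3y against 124 to 138. Results on Hhex are therefore also given without it.

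Hhex was abundant in all 4 libraries, and higher in those labelled as lacking it, so its summed reads ran against the label. It had 5226 and 5656 reads in labelled Hhex-deleted replicates 1 and 2, and 3491 and 3290 reads in Wild-type replicates 1 and 2. After scaling these were 179 and 188 CPM against 127 and 115 CPM. The libraries labelled Hhex-deleted were thus the higher of the 4 and the groups did not overlap, which also holds for 45.5% of all 14912 tested genes. Between the libraries labelled Hhex-deleted the counting intervals overlapped (174 to 184 and 183 to 192 CPM, exact Poisson, 95%), so their order cannot be told from counting alone. Those of the Wild-type libraries (123 to 132 and 111 to 119 CPM) were separate, so replicate 1 was higher than replicate 2 by more than counting error. These intervals cover counting error only.

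The group means of Hhex were 183 ± 6.06 and 121 ± 8.62 CPM (SD, n = 2 each). The ratio of each library labelled Hhex-deleted to each Wild-type library ran from 1.41 to 1.63. On the log2 scale the smallest gap between groups was 0.49, against gaps of 0.07 within the labelled Hhex-deleted and 0.15 within the Wild-type group. The fitted log2 fold change was 0.60 ± 0.09 (SE), a rise of 1.51-fold, with an edgeR adjusted p of 0.0271. By the same threshold 2.6% of the tested genes were called, 1.48% higher and 1.12% lower. With the replicate number added to the model as a block, Hhex was not called (log2 fold change 0.60, edgeR adjusted p = 0.0518). An exact permutation test of Hhex alone gave a two-sided p of 0.333, which is the smallest that 2 against 2 libraries allow. Without labelled Hhex-deleted replicate 1 it came to 0.63 ± 0.10 (SE) on the log2 scale, with an adjusted p of 0.03 by edgeR. The call was lost without Wild-type replicate 1 (log2 fold change 0.67, edgeR adjusted p = 0.0575) and without Wild-type replicate 2 (0.53, edgeR adjusted p = 0.148).

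**Figure D2:**
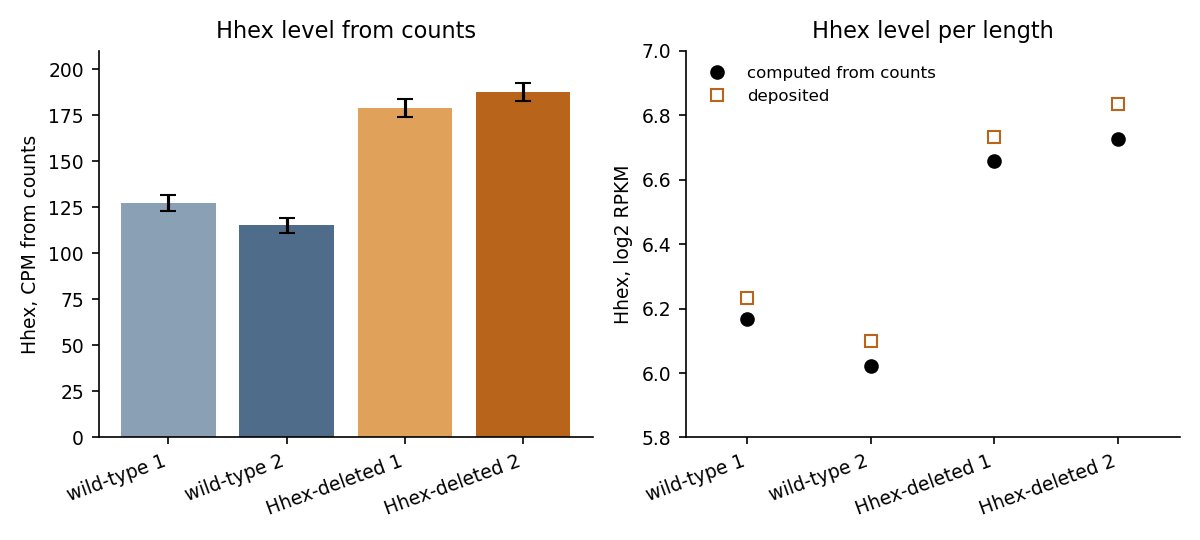
Left, Hhex in CPM for each library (bars) with exact Poisson intervals of 95% (lines), right, its log2 RPKM computed from counts (filled) and as deposited (open squares). Both libraries labelled Hhex-deleted sit above both Wild-type libraries on each scale.

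Bulk RNA of sorted cells cannot tell a change in the share of a cell type from a change of RNA per cell. For the counts of called markers below, edgeR called 1.48% of all tested genes higher and 1.12% lower. Of 7 B lineage markers 6 were called higher. The summed level of the 7 was 109 to 136 CPM in the libraries labelled Hhex-deleted against 38.8 to 43.5 CPM in Wild-type. Of 6 monocyte and macrophage markers 3 were called higher, the C1q genes, while the summed level was 57.3 to 85.4 CPM against 102 to 103 CPM. Of 6 endothelial markers edgeR called 1 lower and 0 higher, with 1 in each direction at an unadjusted p under 0.05. Their median log2 fold change was 0.25 while their sums were lower, at 184 to 224 CPM against 227 to 254 CPM. The 5 neutrophil markers summed to 87.5 to 433 CPM against 477 to 974 CPM, with 0 called by edgeR and 0 with an unadjusted p under 0.05. Of 4 hepatocyte markers, Alb and Ttr had no read in any library. The called B lineage and C1q genes were higher in the same libraries as Hhex, and the called endothelial gene was lower there. The part of these shifts in the level of Hhex was not tested.

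The deposited log2 RPKM values gave the same order of libraries. They had been brought to 1 common distribution before deposit, as far as the values show: with length added back, their sorted values differed between libraries by a median of 0.000809, against 0.0531 for log2 CPM from the counts. They were 6.73 and 6.84 in labelled Hhex-deleted replicates 1 and 2, and 6.23 and 6.10 in Wild-type replicates 1 and 2. Computed from the counts, log2 RPKM was 6.66, 6.73, 6.17 and 6.02, so the deposited values were slightly higher in each library. The difference of the deposited group means was 0.62. In limma's test on the 12662 genes of the deposited tables its adjusted p was 0.0719, on the other side of the threshold from the count test.

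Measured per length, Hhex ranked higher among the genes of its library where it is labelled deleted. Among genes with at least 1 read, it was number 847 of 18111 by RPKM in labelled Hhex-deleted replicate 1 and number 718 of 18207 in replicate 2. In Wild-type it was number 1338 of 17845 in replicate 1 and number 1490 of 17924 in replicate 2. By these ranks, 3.94 to 4.67% of detected genes lay above Hhex in the libraries labelled Hhex-deleted and 7.49 to 8.31% in the Wild-type libraries. In the deposited tables its ranks were 704 and 591 against 1159 and 1308 of 12662 genes. A rank needs no scaling between libraries, and both ranks of the libraries labelled Hhex-deleted were ahead of both Wild-type ranks in both kinds of table.

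Among the 388 called genes the change in Hhex was of small size. By p it was number 215 of the 388. Of the 221 genes called higher, 92.3% had a larger fold change. Among the 3299 tested genes with a mean CPM between 0.5 and 2 times that of Hhex, 31 were called higher (Hhex among them) and 38 lower. In that window 34 genes, again with Hhex, had a log2 fold change at least as high and 62 lay at least as far below 0. The SD of log2 CPM of Hhex was 0.05 between the libraries labelled Hhex-deleted and 0.10 between the Wild-type libraries. The medians over the window were 0.08 and 0.05.

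**Figure D3:**
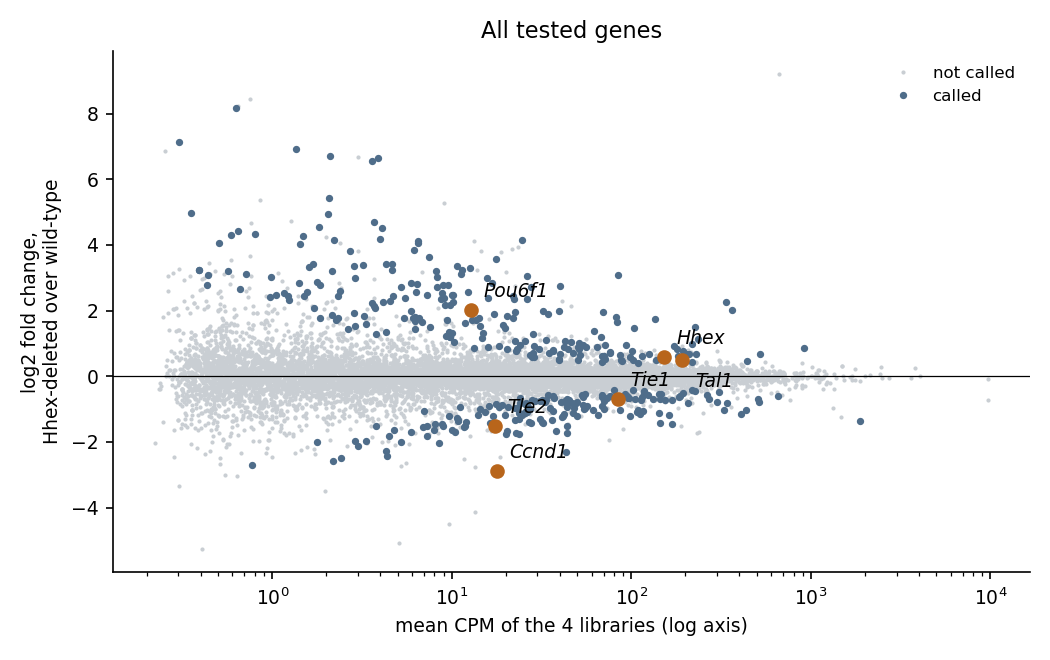
Log2 fold change of labelled Hhex-deleted over Wild-type against mean CPM (log axis) for the 14912 tested genes, each a point, with the 388 called genes in blue and 6 named genes in orange. Hhex lies among abundant genes with a fold change smaller than most called genes that were higher.

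Gene-level reads add the exons together, so the level of Hhex does not test whether the homeobox was lost. The reads do show that RNA with at least some of the counted Hhex exons was present in both libraries labelled Hhex-deleted. If reads fell evenly along the transcript and its amount did not change, a loss of exons 2 and 3, which hold the whole homeobox, would take 230 bases or 13.0% of the counted length, a log2 change of -0.20. Loss of exon 2 alone would give -0.15, loss of exon 3 alone -0.04 and loss of exon 1 alone -0.36. Loss of exon 4 would give -1.51 and of exons 2 to 4 -2.17. The measured log2 change was 0.60 and so had the opposite sign to each of these. Evenness of coverage could not be tested in values per gene, and the share of cells that still carried an intact gene was not tested. In frame terms, exons 2 and 3 together hold 230 coding bases, which is not a multiple of the codon length, while exon 3 alone holds 51, which is.

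Sharing of reads with other genes bears on any gene-level count. Of the 1736 stretches of 36 bases in the Hhex transcript, 40 (2.3%) also occur in a GENCODE transcript of another gene on either strand. GENCODE M21 lists 0 other genes that overlap Hhex. The strand setting of the counts, which is not stated, therefore leaves no annotated antisense partner to take reads from.

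None of the tested genes beside Hhex on chromosome 19 was called higher or lower by edgeR. Kif11, the gene of a motor protein of the mitotic spindle and the nearest neighbour on one side, stood at 271 and 257 CPM in the libraries labelled Hhex-deleted against 274 and 280 CPM in Wild-type (log2 fold change -0.07, SE 0.07, adjusted p = 0.755 in edgeR). Exoc6, a gene of vesicle tethering and the nearest on the other side, had 116 and 107 CPM against 118 and 111 CPM, groups that overlap. The groups of Kif11 did not overlap, which also holds for 45.5% of all tested genes. Of 11 tested neighbours in a hand-written list 0 were called by edgeR, DESeq2 or limma-voom. By edgeR 0 of them had an unadjusted p under 0.05. Their median log2 fold change was -0.02, against -0.01 over all tested genes. A second, overlapping set took the 8 nearest counted genes on each side, of which 10 were tested. Within each library, Hhex was set against the mean log2 CPM of these 10 flanking genes. It lay 1.92 and 1.97 log2 units above that mean in the libraries labelled Hhex-deleted, against 1.41 and 1.27 in Wild-type. Against 14 housekeeping genes the same quantity was 0.25 and 0.46 in the libraries labelled Hhex-deleted, against -0.23 and -0.25 in Wild-type. On both internal scales the groups were apart by more than their spread, though the housekeeping scale widened the gap between the libraries labelled Hhex-deleted. With those housekeeping genes as the common scale, the Hhex call was lost (log2 fold change 0.60, edgeR adjusted p = 0.0678). Each gene weighs equally in that scale, and its member Gapdh averaged only 6.64 CPM, against 824 for Actb. The scale without Gapdh was not tested.

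**Figure D4:**
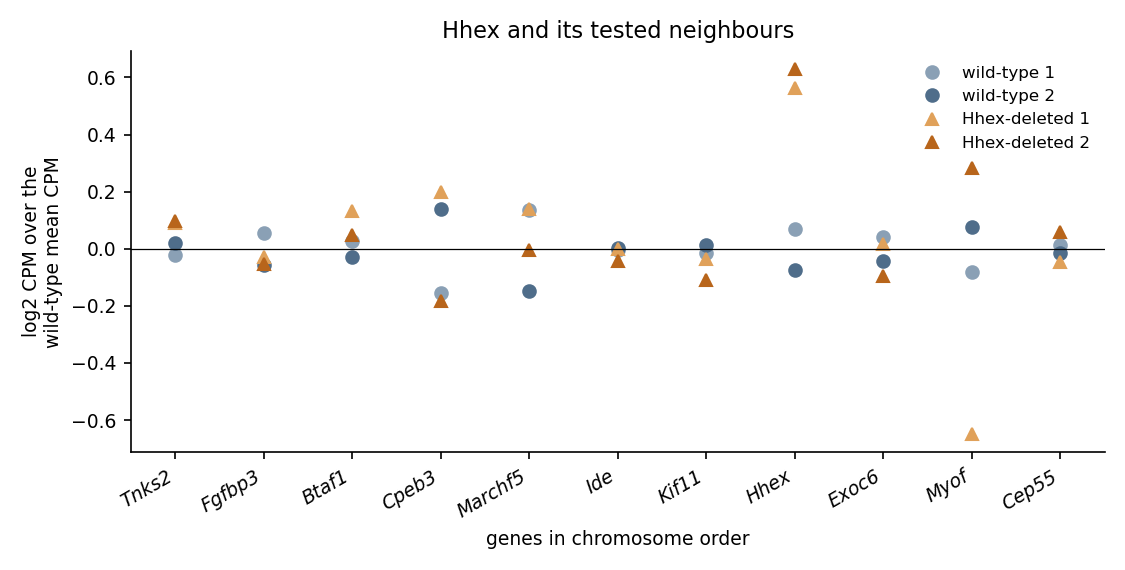
Log2 of each library's CPM over the Wild-type mean CPM for Hhex and its 10 tested flanking genes in chromosome order. Circles are Wild-type and triangles are libraries labelled Hhex-deleted. Both libraries labelled Hhex-deleted lie above both Wild-type libraries at Hhex. They also do at Tnks2 and Btaf1, by smaller distances, and they lie below both at Kif11. Myof has 1 library labelled Hhex-deleted above and 1 below. Of all tested genes, 45.5% have groups that do not overlap.

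Of 200 homeobox genes in a hand-written list, Hhex had the highest RPKM in each of the 4 libraries. It stood at 101 and 106 RPKM in the libraries labelled Hhex-deleted, and at 71.9 and 65 RPKM in Wild-type. The gene next below it was Meis1, a partner of Hox proteins in stem cells, in 3 libraries (50.6, 57.8 and 44.5 RPKM in labelled Hhex-deleted replicates 1 and 2 and Wild-type replicate 1). In Wild-type replicate 2 it was Adnp, a zinc finger homeobox gene (47.4 RPKM). Hhex exceeded the next gene by 2 and 1.83 times in the libraries labelled Hhex-deleted, and by 1.62 and 1.37 times in Wild-type. It made up 18.1 and 17.7% of the summed RPKM of these homeobox genes in the libraries labelled Hhex-deleted, against 14 and 13.2% in Wild-type. Meis1 had a log2 fold change of 0.43 ± 0.13 (SE) and was not called by edgeR (adjusted p = 0.17), while DESeq2 called it higher (adjusted p = 0.0251).

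Within the NK-like class, to which Hhex belongs, few other genes were measured well. Of 47 other members, 29 had no read in any library and 3 passed the filter on low counts, namely Hlx, Nkx2-3 and Nkx6-2. Hlx, a homeobox gene of blood and gut development, was at 5.04 and 6.28 RPKM in the libraries labelled Hhex-deleted, and at 5.31 and 6.38 RPKM in Wild-type, with overlap. Nkx2-3, known from the spleen and gut vessels, was at 4.3 and 5.42 RPKM against 11.1 and 6.36 RPKM (log2 fold change -0.85, SE 0.30, adjusted p = 0.25 in edgeR). None of these 3 was called by edgeR, DESeq2 or limma-voom, and 1 had an unadjusted p under 0.05 by edgeR. Among all 199 other homeobox genes 47 were tested, and edgeR called 1 higher and 0 lower (2.13%, near the 2.6% of all tested genes), with 4 higher and 4 lower at an unadjusted p under 0.05. DESeq2 called 4 higher and limma-voom 1, with 0 lower by either. Their median log2 fold change was 0.03.

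The homeobox gene that was called is Pou6f1, which encodes a POU factor. It stood at 18.5 and 22.3 CPM in the libraries labelled Hhex-deleted against 4.49 and 5.57 CPM in Wild-type. The log2 fold change came to 2.02 ± 0.19 (SE) with an adjusted p of 0.00919 by edgeR, and the call was kept with each library left out (edgeR adjusted p of 0.00689 to 0.0215). Its level per length stayed well below that of Hhex, at 4.04 and 4.88 RPKM.

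**Figure D5:**
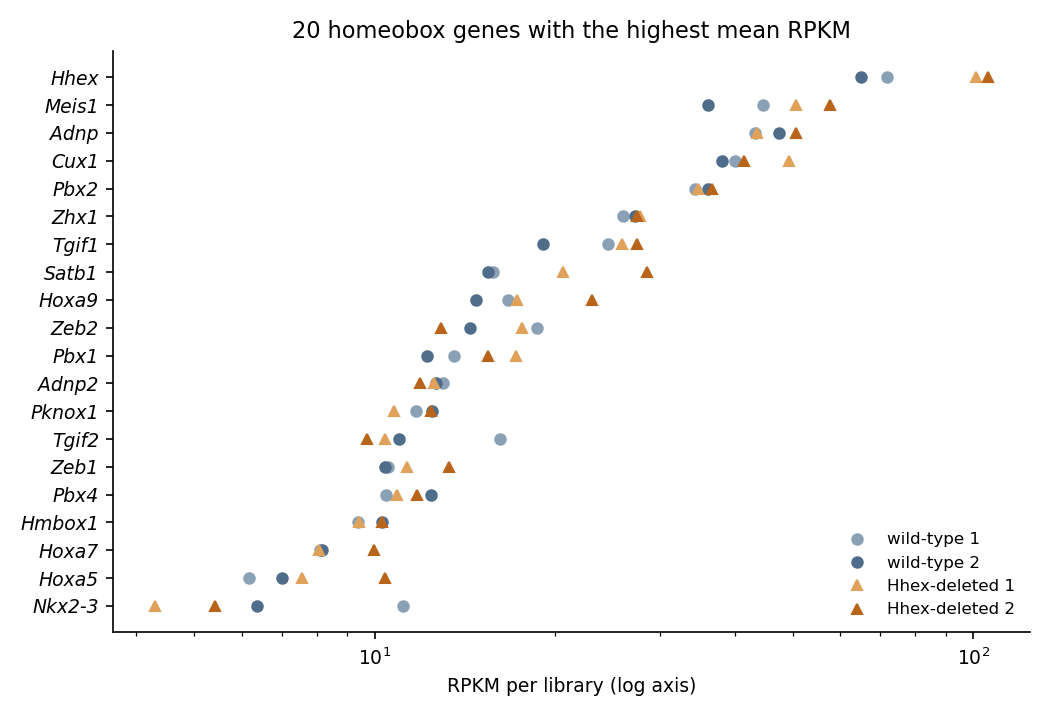
RPKM in each library (log axis) of the 20 homeobox genes with the highest mean RPKM, circles for Wild-type and triangles for libraries labelled Hhex-deleted. Hhex is at the top, with 65 to 106 RPKM, and its groups do not overlap.

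Factors reported to act at the Hhex locus in blood cells form the upstream side of its network. Of 15 tested genes for such stem cell factors, edgeR called 1 higher and 0 lower, or 6.67% against 2.6% of all tested genes, with a median log2 fold change of 0.21 against -0.01. DESeq2 called 4 higher and 1 lower, and limma-voom 0. Tal1, a master regulator of blood formation, rose from 159 and 159 CPM in Wild-type to 218 and 233 CPM in the libraries labelled Hhex-deleted, which is 0.50 ± 0.08 (SE) in log2 fold change with an adjusted p of 0.0339 by edgeR. That call did not hold without labelled Hhex-deleted replicate 2 (edgeR adjusted p = 0.0619) and without Wild-type replicate 1 (0.135) or replicate 2 (0.184). The Tal1 call was also lost with housekeeping genes as reference (edgeR adjusted p = 0.131) and with no robust dispersion (edgeR adjusted p = 0.0548). It was lost too with limma on the deposited log2 RPKM (adjusted p = 0.0842). Gata2, another such factor, was at 423 and 336 CPM against 247 and 200 CPM (log2 fold change 0.76 ± 0.15, SE). It was not called in the main fit (edgeR adjusted p = 0.0727). Gata2 was called with DESeq2 (adjusted p = 6.5e-06), with housekeeping genes as reference (edgeR adjusted p = 0.0461) and with the replicate number as a block (edgeR adjusted p = 0.0254). No other alternative called it. Spi1, the gene of PU.1, was at 136 and 117 CPM against 172 and 187 CPM (log2 fold change -0.51, SE 0.10, adjusted p = 0.0653 in edgeR). Spi1 was called lower with DESeq2 (adjusted p = 0.000605) and with no low-count filter (edgeR adjusted p = 0.0417). Its log2 fold change was -0.625 without labelled Hhex-deleted replicate 1 and -0.393 without replicate 2 of that group. Lmo2 and Lyl1, partners of Tal1 in one complex, had overlapping groups. Lmo2 was at 527 and 547 CPM against 631 and 535 CPM, and Lyl1 at 217 and 252 CPM against 210 and 259 CPM.

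Among the Groucho/TLE corepressors, all 6 genes were tested and edgeR called 1 lower and 0 higher. That is 16.7% of a list this short, against 2.6% of all tested genes, of which 1.12% were lower. The median log2 fold change of the list was -0.18. Tle2 fell from 26 and 25.4 CPM in Wild-type to 7.95 and 10.3 CPM, which is -1.50 ± 0.16 (SE) in log2 fold change with an adjusted p of 0.0139 by edgeR, and the call was kept with each library left out (0.00848 to 0.0449). Tle6, a divergent member, was at 15.8 and 15.1 CPM against 21.9 and 22.1 CPM and was not called (log2 fold change -0.51, SE 0.11, adjusted p = 0.0848 in edgeR). Tle5, the shortest member, which lacks the part that binds other repressors, was at 264 and 249 CPM against 302 and 294 CPM.

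The 11 tested core and accessory genes of Polycomb repressive complex 2, which sets the repressive mark on histone H3, gave 0 calls by edgeR, DESeq2 or limma-voom. By edgeR 0 of them passed even at an unadjusted p of 0.05. Their log2 fold changes ran from -0.26 to 0.21. Of 12 tested genes for other reported protein partners of Hhex, among them Pml and Eif4e, edgeR called 0, with 4 higher at an unadjusted p under 0.05. DESeq2 called 2 higher and limma-voom 0. Eif4e, the cap-binding factor that Hhex is known to inhibit, had 134 and 130 CPM against 135 and 128 CPM.

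The downstream side was described by 21 genes reported as targets or responders of Hhex in other tissues, of which 13 passed the low-count filter. Of these edgeR called 2 higher and 2 lower, 30.8% of the tested members against 2.6% of all genes. The list was put together with earlier results of these data known, so that share is not independent evidence. Cdkn2a rested on 30 and 27 reads where Hhex is labelled deleted, with 1 and 2 in Wild-type (ratio of pooled CPM 17.9, exact counting interval 5.83 to 89.5, edgeR adjusted p = 0.0239). Cdkn2b, the gene of a related inhibitor, showed 18 and 23 reads, with 1 and 0 in Wild-type (ratio 38.7, interval 6.56 to 1564, edgeR adjusted p = 0.04). With the replicate block neither was called (edgeR adjusted p of 0.0524 and 0.0764). Cdkn2b was also not called by DESeq2 (adjusted p = 0.0608) or with no robust dispersion (edgeR adjusted p = 0.0558). Nor was it with upper quartile factors, library totals alone or housekeeping genes as the scale (edgeR adjusted p of 0.0501 to 0.0617). The call of Cdkn2a did not hold when labelled Hhex-deleted replicate 2 or either Wild-type library was left out (edgeR adjusted p of 0.0502 to 0.123), nor did that of Cdkn2b when any one library was left out (0.0579 to 0.199).

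That list holds 6 endothelial receptor genes (Flt1, Kdr, Nrp1, Eng, Tie1 and Tek), of a kind that Hhex is known to regulate in vessels. Of these 6 edgeR called 1 lower and 0 higher, while of all tested genes it called 1.12% lower and 1.48% higher. Tie1, an orphan receptor of endothelium and stem cells, fell from 109 and 97.7 CPM to 67.1 and 62 CPM, which is -0.68 ± 0.09 (SE) in log2 fold change with an adjusted p of 0.0227 by edgeR. Flt1, a receptor for Vegf, was at 1.95 and 2.52 CPM against 4.52 and 6.48 CPM (edgeR adjusted p = 0.0796), and Nrp1, a coreceptor, at 7.81 and 7.1 CPM against 12.5 and 11.6 CPM (0.0932). For Tie1, Flt1 and Nrp1 both values labelled Hhex-deleted lay below both Wild-type values, and 45.5% of all tested genes had groups that do not overlap. Eng, a coreceptor for TGF-beta ligands, had both values above, at 166 and 141 CPM against 128 and 124 CPM (edgeR adjusted p = 0.241). The groups overlapped for Kdr, a main Vegf receptor (4.56 and 1.82 CPM against 2.12 and 1.82 CPM), and for Tek, the receptor of angiopoietins (19.8 and 13.8 CPM against 16.9 and 14.7 CPM). The Vegfa gene itself was at 37.9 and 26.6 CPM against 49.8 and 54.9 CPM (log2 fold change -0.70, SE 0.18, adjusted p = 0.13 in edgeR). DESeq2 called Vegfa and Flt1 lower (adjusted p = 0.00754 and 0.0259) but not Nrp1 (0.0514). The log2 fold change of Vegfa was -0.98 without labelled Hhex-deleted replicate 1 and -0.46 without replicate 2 of that group. Ccnd1, the gene of cyclin D1, fell from 30.5 and 32 CPM to 2.91 and 5.64 CPM (log2 fold change -2.87, SE 0.32, adjusted p = 0.0226 in edgeR). The calls of Tie1 and Ccnd1 were lost without Wild-type replicate 1 (edgeR adjusted p of 0.0884 and 0.0679) and without replicate 2 (0.0566 and 0.111).

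By the shape of its values over the 4 libraries, Hhex had close companions. Over the 10180 genes that average 10 CPM or more, the distance between log2 CPM values centred on each gene's mean was smallest for Tfcp2 (0.05), Fyb (0.05), St3gal1 (0.06), Fer (0.06) and Tnik (0.06), against a median of 0.64. Fyb stood at 103 and 108 CPM in the libraries labelled Hhex-deleted against 70.2 and 65.2 CPM in Wild-type, and St3gal1 at 180 and 197 CPM against 133 and 122 CPM. With 4 libraries such likeness is a description. Since the genes were picked for it, their fold changes carry no test here.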

How the data were processed

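RNA of LSK cells was measured in 4 libraries, made with an Illumina TruSeq RNA kit per the labels. The authors deposited raw read counts per Entrez gene with a gene length, and log2 RPKM values (per length and library total, per the file headers) for 12662 genes. Subread, featureCounts, limma and mm9 stand in the submitters' processing notes, with no version or role. How strand and low values were handled is not given in the sources used here.

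Symbols came from RefSeq on GRCm38 and otherwise from the deposited tables (24255 of 26286 identifiers). Counts were fitted with edgeR 4.0.16 in R 4.3.3: filterByExpr (minimum count 10, minimum total 15) left 14912 genes, scaled by TMM, in a robust quasi-likelihood model with group as its term, a prior count of 0.125 and a Benjamini-Hochberg threshold of 0.05. The SE is the log2 fold change over the square root of F. DESeq2 1.42.0, limma-voom and limma-trend (limma 3.58.1), other scalings, no filter, no robust dispersion, a replicate block and leaving out each library were alternatives. RPKM is CPM per kilobase of the deposited length. At this depth 3 counts are 0.0995 to 0.109 CPM. The script was tested on simulated counts. With 200 genes changed, edgeR recovered 65 of those changed 2-fold and 85 of those changed 4-fold, beside 18 false calls. DESeq2 made 26 false calls there and limma-voom 10. With no gene changed, edgeR made 5 calls, DESeq2 15 and limma-voom 0.

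Hhex, the gene lists and tests were chosen with earlier results of these data known. The naming rule takes Hhex, its neighbours, called members of the lists, homeobox genes at or above its RPKM, Cdkn2a and Cdkn2b, and the 5 genes nearest in pattern; other named genes were chosen after their values were seen. Of 339 list symbols 1 was not matched. Some genes of the lists are not reported here by name.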

Additional observations from a re-analysis of the deposited data

How the results depend on the processing

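Hhex was higher in the libraries labelled Hhex-deleted under all 14 alternatives, with log2 fold changes of 0.53 to 0.67, and passed the threshold in 9 (adjusted p of 2.01e-07 with DESeq2 to 0.148 with a library left out). It did not pass with housekeeping genes as reference (0.60, edgeR adjusted p = 0.0678), with limma on the deposited log2 RPKM (0.62, adjusted p = 0.0719) or with the replicate block (0.60, edgeR adjusted p = 0.0518). The labels do not say what the replicate numbers stand for. Deviations of same-numbered libraries correlated at 0.4 over 10180 genes, so these libraries shared differences that the main fit leaves out. With the block 185 genes were called higher and 130 lower. With a library left out the log2 fold change of Hhex ran from 0.53 to 0.67.

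Of all genes 221 were called higher and 167 lower. These counts were 129 and 45 with housekeeping genes as reference, 493 and 495 with DESeq2, 123 and 79 with limma-voom, and 34 and 6 on the deposited log2 RPKM. Lower calls were 86 with library totals alone, 272 with no low-count filter and 99 with no robust dispersion. With a library left out, higher calls ran from 84 to 366 and lower from 40 to 231. Members of the gene lists called were 4 higher and 3 lower. They were 9 and 6 with DESeq2, 0 and 0 on the deposited log2 RPKM, 2 higher with no robust dispersion, and 1 to 5 in each direction with a library left out. The causes were not tested.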

Other observations

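Jun, an immediate early gene and a reported partner of Hhex, differed between replicate numbers rather than between groups. It stood at 1044 and 1189 CPM in labelled Hhex-deleted replicate 1 and Wild-type replicate 1, and at 203 and 172 CPM in the replicates numbered 2. Hhex showed no such split by number: replicate 1 was the lower in the group labelled Hhex-deleted and the higher in Wild-type.

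Hnf4a, a nuclear receptor gene of the liver that acts with Hhex there, was read in all 4 libraries, at 36.7 and 63 CPM in the labelled Hhex-deleted and 24.7 and 21.5 CPM in the Wild-type libraries (log2 fold change 1.11 ± 0.28, SE, edgeR adjusted p = 0.166). DESeq2 called Hnf4a higher (adjusted p = 0.000297). The log2 fold change of Hnf4a was 1.45 without labelled Hhex-deleted replicate 1 and 0.68 without replicate 2 of that group. Cyp7a1, a liver enzyme gene of the same list, had 0 reads in every library. The Sst gene, which Hhex is known to govern in pancreatic delta cells, also had 0 reads.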
